A study of Mus musculus with 24 samples.

Results

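Liver RNA was measured on 24 one-colour arrays, and the values of 8 genes of hepatic glucose and fructose use are given here. The genes were Slc2a2, Gckr, Pfkl, Pfkfb1, Pklr, Khk, Mlxipl and Txnip, out of 37074 gene names on the array. They were chosen by name, with earlier results of these data known. Exact matching of the gene name gave 15 probes, of which 14 had a row in the deposited log2 table. All 8 genes had at least 1 row, and all 14 probes were well above background on all 24 arrays. The remaining probe, of Pfkl, had no row in that table and was well above background on 1 of 24 arrays.

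The mice were F3 males of the C57Bl6J strain, killed during fasting. The reference group (STD_Cont, 9 mice) came from the lineage given a control fatty acid, a high-oleic sunflower oil, and was fed a low-fat diet. The HFoleic group (HFD_Cont, 8 mice) came from the same lineage and received the obesogenic diet, which is high in fat and sucrose. How the sucrose of the low-fat diet compared is not stated here. The HFepa group (HFD_O3, 7 mice) came from the n-3 lineage, supplemented with a fish oil whose main n-3 fatty acid is eicosapentaenoic acid (EPA), on the obesogenic diet. No low-fat mice of the EPA lineage were measured, so lineage and diet cannot be told apart between HFepa and reference. The age of the mice is not given in the labels.

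The liver takes up glucose and fructose after a meal, breaks them down by glycolysis and turns the surplus into fat. ChREBP, the protein encoded by Mlxipl, is activated by sugar phosphates and, bound to its partner Mlx, switches on genes through carbohydrate response elements, which hold E-box-like motifs. Pklr and Txnip are classical ChREBP targets, and in a fasting liver glycolysis is slowed while glucose is made and released.

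Mlxipl was higher in HFoleic than in reference livers, 1.47-fold on its brightest probe. On that probe the groups did not overlap, by a narrow gap (lowest HFoleic mouse 14.27, highest reference mouse 14.25). How many of all rows lack overlap is not given here. The other 2 Mlxipl probes stood at log2 differences of -0.05 and 0.31 and were not called. Gckr was 1.21-fold higher in the same comparison, with overlap. Pklr, Slc2a2 and Khk were between 1.16-fold and 1.29-fold of the reference mean in HFoleic, without passing the test, and the Pfkl probes went opposite ways. In HFepa, Mlxipl was 1.36-fold of the reference mean, a value at the very edge of the threshold. None of the 8 genes passed the test between the 2 lineages on the obesogenic diet, where Txnip had the largest difference of the 8, 1.52-fold higher in HFepa.

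Promoter sequences of the members are shown because Mlxipl encodes the factor that reads carbohydrate response elements. RefSeq (GRCm38.p6) gave 13 promoters for the 8 genes. In the 250 bases before each start, both strands were searched for the E-box CACGTG and for the carbohydrate response element, a spaced pair of E-box-like motifs. The E-box was present in 6.02% and the longer element in 0.0396% of all 32851 promoters in the table. Among the 13 promoters, 2 held the E-box (1 of Mlxipl, 1 of Khk) and 1, of Pklr, held the longer element. The capitals mark these letters, and positions count back from the base before the start, which is -1.
Pklr, start 2, chr3:89136373-89136622, plus strand, element at -170 to -154: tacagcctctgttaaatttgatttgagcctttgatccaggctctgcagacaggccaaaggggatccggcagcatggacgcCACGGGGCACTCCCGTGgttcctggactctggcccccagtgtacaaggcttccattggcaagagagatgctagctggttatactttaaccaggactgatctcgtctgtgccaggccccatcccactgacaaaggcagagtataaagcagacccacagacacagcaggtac
Mlxipl, start 1, chr5:135089640-135089889, plus strand, E-box at -98 to -93: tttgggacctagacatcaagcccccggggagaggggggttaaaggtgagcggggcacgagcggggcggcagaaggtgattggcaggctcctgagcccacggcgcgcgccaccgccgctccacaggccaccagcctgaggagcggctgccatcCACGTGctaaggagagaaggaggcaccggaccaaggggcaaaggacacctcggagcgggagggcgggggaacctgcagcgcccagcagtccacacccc
Khk, 30 bases around its E-box at -71 to -66, chr5:30921476-30921505, plus strand: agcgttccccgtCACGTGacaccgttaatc
A match to these letters is a description of the sequence, and binding was not measured. No promoter of Txnip held these exact letters in the window. The longer element was searched only with its 2 motifs facing in opposite directions. The Txnip window does hold 2 E-box-like motifs a few bases apart that face the same way, an arrangement outside this search. How often that arrangement occurs in all promoters was not tested.

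Between 50.9% and 60.8% of probes per array were well above background, and 0 spots were saturated. The 24 arrays lay on 3 slides in 2 rows, with every group on every slide and in both rows. Hepatocyte markers were well above background on all arrays for 10 of 10 genes, and their summed level ranged from 20.55 to 20.73 (log2) in reference, 20.68 to 20.74 in HFoleic and 20.69 to 20.74 in HFepa. Of the markers of hepatocytes and 8 other cell types, Tat and Cps1 (hepatocyte) and Sox9 (bile duct) were called lower and Lrat (stellate cell) higher in HFoleic than in reference, and none was called in the other comparisons. Reference replicate 5 stood apart from the other arrays, with a score of 80.73 on the first principal component, where the next array (reference replicate 4) had 30.04. It had the lowest hepatocyte sum, 20.55, and the highest bile duct sum, 13.41 against a reference median of 10.97, and stellate cell sum, 15.57 against 14.44. The only skeletal muscle marker with a row stood at 10.16 in reference replicate 3, against a median of 6.56. The adipocyte sum was uneven in every group. It ranged from 8.45 to 12.64 in reference, 8.80 to 13.44 in HFoleic and 8.66 to 12.50 in HFepa. Of the 4 adipocyte markers, 2 were well above background on all arrays. Reference replicate 5 was also the lowest reference mouse for Slc2a2, Pklr and Khk. Without it, Mlxipl stood at 0.51 and Gckr at 0.28 in HFoleic, both still called (adjusted p 0.00293 and 0.0327), while Pklr went to 0.29, Slc2a2 to 0.18 and Khk to 0.13. The part of these markers in the results was not tested. In whole liver, a change in the share of a cell type and a change of RNA per cell cannot be told apart. Nothing in the labels says which mice shared a litter, so the p-values measure the spread between the mice as labelled.

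Values are log2 signals, and each probe is compared only with itself, since probes differ in brightness for reasons other than RNA amount. Differences are log2, with a standard error (SE) and a p-value adjusted over all 32176 rows of the table. A gene is called when the adjusted p of its brightest probe is under 0.05.

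In HFoleic against reference, which asks what the obesogenic diet changed in the oleic lineage, 2 of the 8 genes were called, both higher, against 6.59% of all rows called in either direction and 3.69% called higher and 2.9% lower. The unadjusted p was under 0.05 for 5 of the 8 genes, against 20% of all rows. On the brightest probes 6 of the 8 genes lay above 0, with a median difference of 0.25, against -0.0006 over all rows. Over all 14 rows of the genes, 2 were called, 7 had an unadjusted p under 0.05, 9 lay above 0 and 5 below. In HFepa against reference, 1 of 8 was called, against 0.342% of all rows, the median was 0.12, and 7 of 8 genes and 11 of 14 rows lay above 0. In HFepa against HFoleic, which asks what the lineage changed under the same diet, 0 of 8 were called and 0% of all rows, while 1 of 8 genes and 9.23% of all rows had an unadjusted p under 0.05. On the brightest probes 7 of the 8 genes lay below 0, with a median of -0.14, but over all rows 9 of 14 lay below 0 and 5 above. Mlxipl and Pfkl moved to 0.04 and 0.02 on the mean of their rows. The comparisons share groups, so these counts are not independent of each other. Each gene is counted by its brightest row, while the shares are over every row of the table. The genes were chosen with earlier results of these data known, so the counts are no test of the set.

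**Figure D1:**
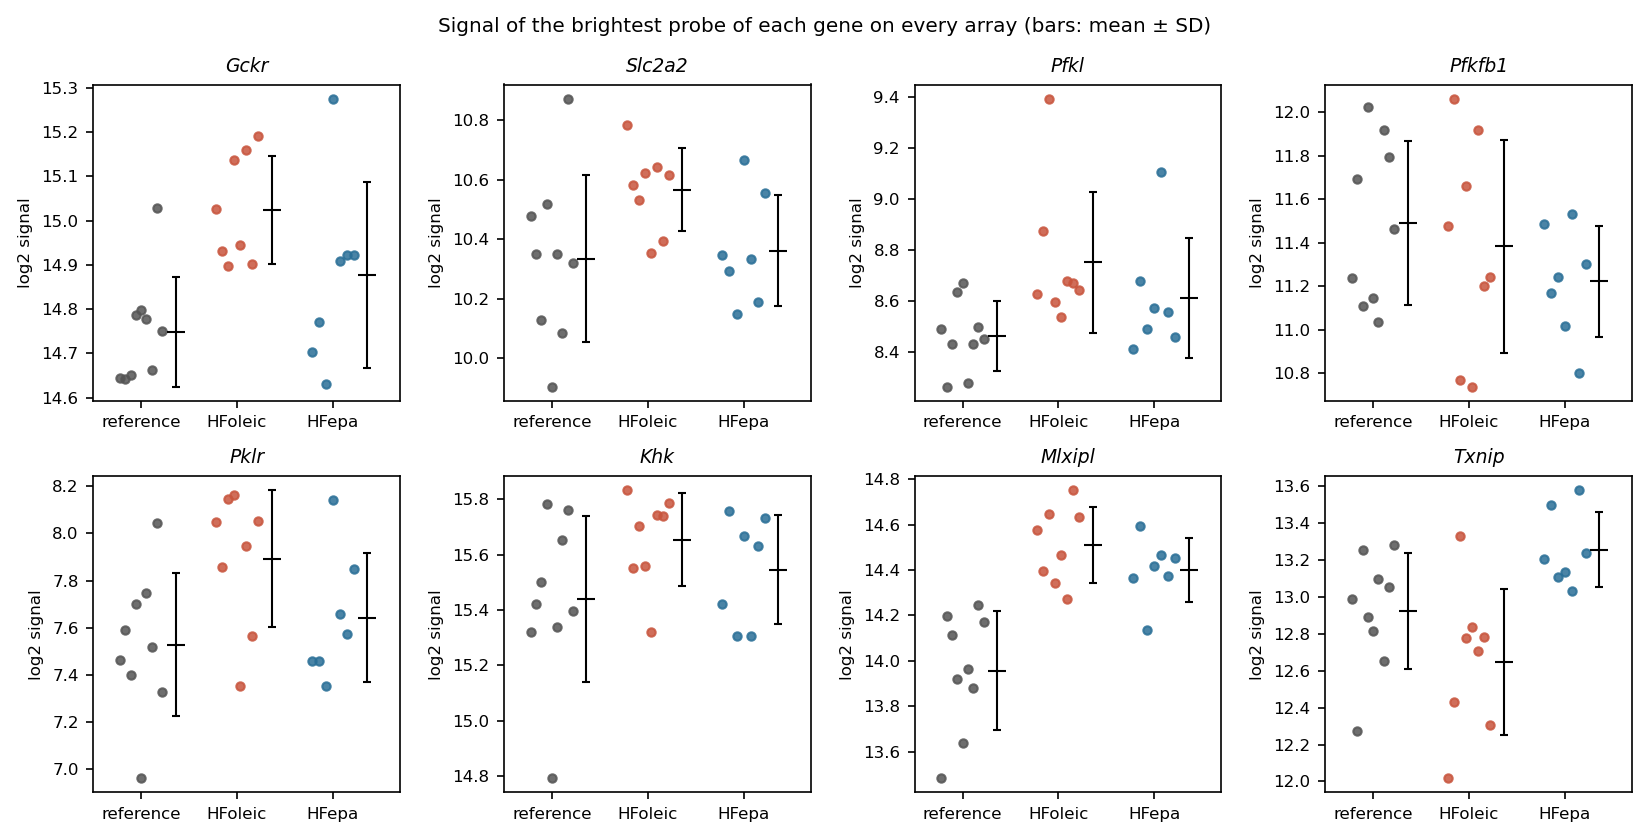
Log2 signal of the brightest probe of each of the 8 genes on every array, with points for the 9 reference, 8 HFoleic and 7 HFepa mice and bars for the mean ± SD. Each panel has its own scale. For Mlxipl the HFoleic points (lowest 14.27) lie above all reference points (highest 14.25), while Pfkfb1 and Khk overlap widely.

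Slc2a2 encodes GLUT2, the main glucose transporter of hepatocytes, which carries glucose in both directions. Its probe (mm9 chr3:28625253-28625961) ranged from 9.90 to 10.87 in reference mice with a median of 10.35, from 10.35 to 10.78 in HFoleic with a median of 10.60, and from 10.15 to 10.67 in HFepa with a median of 10.33. All 8 HFoleic mice lay above the reference mean, but all 3 groups overlapped. The HFoleic difference was 0.23 (SE 0.10, adjusted p 0.196) and was not called. HFepa stood at 0.03 (SE 0.11, adjusted p 0.951) against reference and at -0.20 (SE 0.11, adjusted p 0.584) against HFoleic, with a 95% interval of -0.43 to 0.02 for the latter. Without reference replicate 8, the highest Slc2a2 value of its group, the HFoleic difference was 0.30 and called (adjusted p 0.0355). It was not called in the other 23 fits that left out 1 array.

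Gckr encodes a liver regulatory protein of glucose phosphorylation that responds to fructose phosphates. Its probe (mm9 chr5:31629583-31629642) ranged from 14.64 to 15.03 in reference with a median of 14.75. In HFoleic it ranged from 14.90 to 15.19 with a median of 14.99, and in HFepa from 14.63 to 15.28 with a median of 14.91. All 8 HFoleic mice lay above the reference mean. A single reference mouse, replicate 8 at 15.03, overlapped the HFoleic range, and the next reference mouse stood at 14.80. Gckr rose by 0.27 (SE 0.08, adjusted p 0.0284) in HFoleic. Within the 3 slides the difference was 0.24 to 0.34. The call is close to the threshold: leaving out reference replicate 1, 3 or 7 or HFoleic replicate 4, 6 or 8 raised the adjusted p to between 0.0524 and 0.0653, with the difference at 0.25 to 0.26. HFepa differed from reference by 0.13 (SE 0.08, adjusted p 0.532) and from HFoleic by -0.15 (SE 0.08, adjusted p 0.6), neither called.

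Pfkl encodes the liver subunit of phosphofructokinase, the committed step of glycolysis. Its brightest probe (mm9 chr10:77450926-77450985, minus strand) ranged from 8.26 to 8.67 in reference (median 8.45), 8.54 to 9.39 in HFoleic (median 8.66) and 8.41 to 9.11 in HFepa (median 8.56). All 8 HFoleic mice lay above the reference mean, and HFoleic replicate 3 was the highest of all. The HFoleic difference was 0.29 (SE 0.10, adjusted p 0.0979). The HFepa differences were 0.15 (SE 0.11, adjusted p 0.612) against reference and -0.14 (SE 0.11, adjusted p 0.730) against HFoleic. A dimmer probe, 19431 bases away in mm9, went the other way in HFoleic, at -0.25 (SE 0.11, adjusted p 0.22), with all 8 HFoleic mice below the reference mean. With group means removed, the 2 Pfkl probes correlated at 0.0018 over 24 arrays. The dimmer probe held a stretch of 16 bases found in an array probe of 1 other gene, and the brightest held none. The part of these shared letters in its values was not tested. No direction for Pfkl is therefore given, though its brightest probe enters the counts of the 8 genes above.

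Pfkfb1 encodes the liver form of the enzyme that makes and degrades fructose 2,6-bisphosphate, the activator of phosphofructokinase. Its brightest probe (mm9 chrX:147078320-147078379) ranged from 11.03 to 12.02 in reference (median 11.46), 10.74 to 12.06 in HFoleic (median 11.36) and 10.80 to 11.53 in HFepa (median 11.24). The HFoleic range took in the whole HFepa range, and all 3 groups overlapped. The differences were -0.11 (SE 0.18, adjusted p 0.809) for HFoleic and -0.27 (SE 0.19, adjusted p 0.592) for HFepa against reference. They were -0.16 (SE 0.19, adjusted p 0.845) between the lineages, with a 95% interval of -0.55 to 0.23. The second Pfkfb1 probe, 21692 bases away, tracked the first across arrays at a correlation of 0.84 with group means removed. Its differences lay between -0.11 and 0.09, and none was called.

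Pklr encodes liver pyruvate kinase, the last step of glycolysis, and its downstream promoter carries the element printed above. Its probe (mm9 chr3:88948907-88949425) ranged from 6.96 to 8.04 in reference (median 7.52), 7.36 to 8.16 in HFoleic (median 8.0) and 7.35 to 8.14 in HFepa (median 7.57). Of the HFoleic mice, 7 of 8 lay above the reference mean and 4 above every reference mouse. The HFoleic difference of 0.36 (SE 0.13, adjusted p 0.112) was not called. It was called without HFoleic replicate 5, the lowest of its group (0.44, adjusted p 0.0443), and without reference replicate 8, the highest of its own (0.43, adjusted p 0.0375). HFepa differed by 0.11 (SE 0.14, adjusted p 0.805) from reference and by -0.25 (SE 0.14, adjusted p 0.613) from HFoleic.

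Khk encodes ketohexokinase, which phosphorylates fructose and so starts its breakdown in the liver. Its brightest probe (mm9 chr5:31233555-31233614) ranged from 14.79 to 15.78 in reference (median 15.42), 15.32 to 15.83 in HFoleic (median 15.72) and 15.31 to 15.76 in HFepa (median 15.63). Reference replicate 5 was the lowest of the 24 mice and stood apart from the next reference mouse at 15.32. The differences were 0.21 (SE 0.11, adjusted p 0.281) in HFoleic and 0.11 (SE 0.11, adjusted p 0.767) in HFepa against reference, and -0.11 (SE 0.12, adjusted p 0.824) between the lineages. Without reference replicate 5, they were 0.13 in HFoleic and 0.02 in HFepa. The second Khk probe had an empty cell for reference replicate 4, which the fit left out. It gave 0.25, 0.13 and -0.12 in the same order, none called, and correlated with the first at 0.81 over 23 arrays with group means removed.

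Mlxipl encodes ChREBP itself. Its brightest probe (mm9 chr5:135613705-135613764) ranged from 13.48 to 14.25 in reference mice with a median of 13.96. In HFoleic it ranged from 14.27 to 14.75 with a median of 14.52, and in HFepa from 14.13 to 14.60 with a median of 14.42. Every HFoleic mouse lay above every reference mouse, whereas 1 HFepa mouse, replicate 3 at 14.13, fell within the reference range. Mlxipl rose by 0.55 (SE 0.10, adjusted p 0.00176) in HFoleic, place 108 of 32176 rows by p-value. It was 0.36 to 0.68 within the slides and was called in all 24 fits that left out 1 array and in all 12 other alternatives. On the mean of its 3 rows, however, the difference was 0.27 (SE 0.07, adjusted p 0.0151).

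In HFepa the Mlxipl difference from reference was 0.44 (SE 0.10, adjusted p 0.049994), with 7 of 7 HFepa mice above the reference mean and 0.34 to 0.60 within the slides. This call is unstable: it held in 3 of 24 fits that left out 1 array (without reference replicate 3, reference replicate 8 or HFepa replicate 3), with adjusted p from 0.0175 to 0.113, and in 3 of 12 other alternatives, with adjusted p from 0.0420 to 0.187. The difference itself stayed between 0.31 and 0.50 throughout. HFepa differed from HFoleic by -0.11 (SE 0.10, adjusted p 0.785), with a 95% interval of -0.32 to 0.10.

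The 3 Mlxipl probes did not give 1 picture. The second probe (probe 2, mm9 chr5:135614195-135614252), 490 bases from the brightest, differed by -0.05 (SE 0.09, adjusted p 0.830) in HFoleic and by 0.03 (SE 0.09, adjusted p 0.927) in HFepa. The third probe (probe 3, mm9 chr5:135598483-135599113) stood at 0.31 (SE 0.12, adjusted p 0.122) in HFoleic and at 0.45 (SE 0.12, adjusted p 0.0954) in HFepa, where 7 of 7 mice lay above the reference mean. With group means removed, the brightest probe correlated at -0.34 with the second and at 0.11 with the third. The letters of these probes are shown because the dimmer ones hold letters found in probes of other genes. Stretches of 16 bases of the second probe occurred in array probes of 4 other genes, and of the third probe in those of 16 other genes. The brightest probe shared none, and 12.7% of all 56605 probes shared such a stretch with another gene. Shared letters are in capitals.
Mlxipl probe 2, bases 27 to 56: ggtgaTGCACACCTTTAATCCCAGTACTTG
Mlxipl probe 3, bases 31 to 60: tACTACACAGAGAAACCCTGTCTCAAAAAA
Mlxipl brightest probe, bases 1 to 30: ggcatcttgcatgaatgtagatgtgtgtgt
The part of these shared letters in the values of the dimmer probes was not tested.

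Txnip encodes an arrestin-like protein that binds thioredoxin and lowers glucose uptake, and its RNA is known to rise with glucose. Its brightest probe (mm9 chr3:96365340-96365399) ranged from 12.27 to 13.28 in reference (median 12.99), 12.02 to 13.33 in HFoleic (median 12.74) and 13.03 to 13.58 in HFepa (median 13.21). All 7 HFepa mice lay above the HFoleic mean, but HFoleic replicate 3 at 13.33 kept the 2 groups overlapping. Txnip differed by 0.61 between the lineages (SE 0.16, 95% interval 0.28 to 0.93), place 115 of 32176 rows by p-value, and was not called (unadjusted p 0.000714, adjusted p 0.197). The difference was 0.43 to 0.75 within the slides and 0.52 to 0.71 when 1 array was left out.

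Txnip was the only one of the 8 genes to lie below reference in HFoleic and above it in HFepa. Against reference it stood at -0.27 in HFoleic (SE 0.15, adjusted p 0.310) and at 0.33 in HFepa (SE 0.15, adjusted p 0.354). Neither was called. The second Txnip probe, 1134 bases away, gave -0.28, 0.34 and 0.62 for the 3 comparisons and correlated with the first at 0.86 with group means removed.

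**Figure D2:**
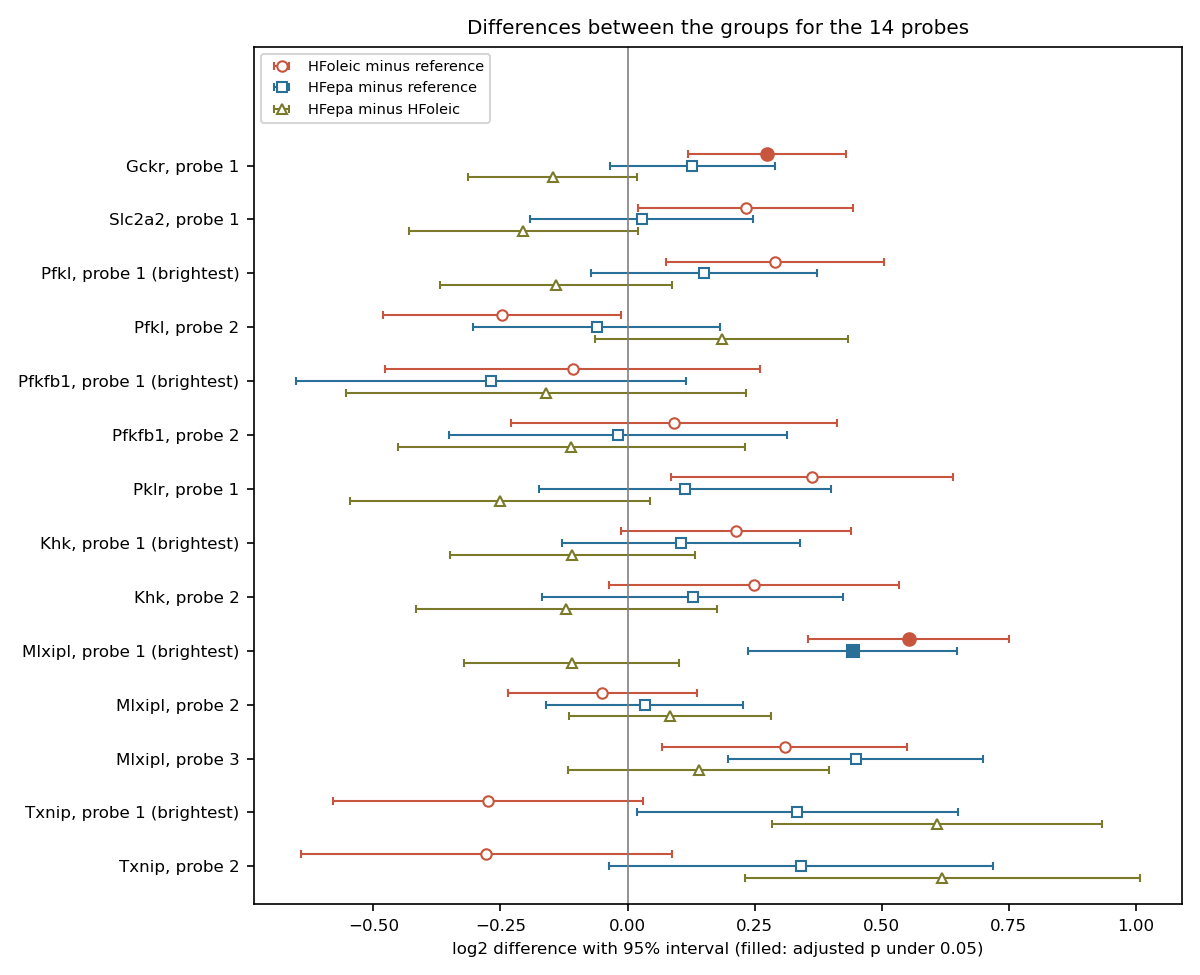
Log2 differences of the 14 probes in the 3 comparisons, with 95% intervals from limma and filled symbols for an adjusted p under 0.05. Only Gckr and the brightest Mlxipl probe have filled symbols, and the Txnip probes have the largest values for HFepa minus HFoleic, 0.61 and 0.62.

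**Figure D3:**
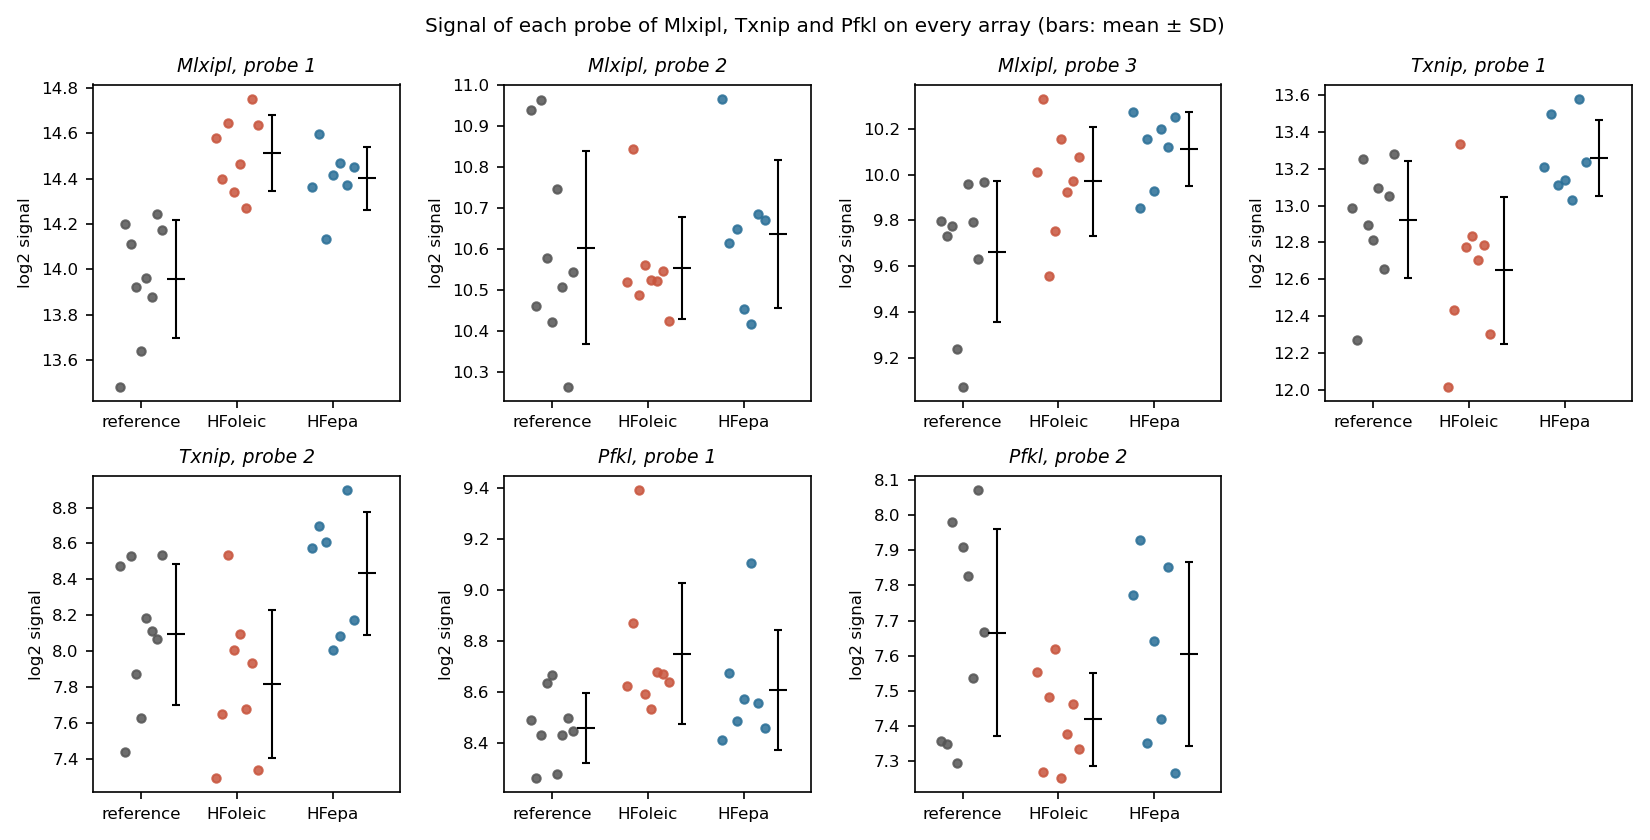
Log2 signal of each probe of Mlxipl, Txnip and Pfkl on every array, with bars for the mean ± SD. The Txnip probes order the groups alike, the Pfkl probes go opposite ways in HFoleic (0.29 and -0.25), and the second Mlxipl probe shows no shift (-0.05 in HFoleic).

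The genes were also compared across mice. With group means removed, Slc2a2 and Pklr had the highest correlation of the 28 pairs, 0.82 over 24 arrays, followed by Pklr with Khk at 0.64, Pklr with Gckr at 0.63, Slc2a2 with Khk at 0.60 and Slc2a2 with Gckr at 0.59. Gckr with Khk stood at 0.28. Without reference replicate 5, the values were 0.78 for Slc2a2 with Pklr, 0.51 for Pklr with Khk, 0.75 for Pklr with Gckr, 0.44 for Slc2a2 with Khk and 0.71 for Slc2a2 with Gckr. Mlxipl correlated at 0.50 with Khk (0.38 without that mouse) and at 0.27 or less with the others. Txnip lay between -0.14 and 0.30 with every gene except Pfkfb1, at -0.49. Over all pairs, 19 were positive and 9 negative, with a median of 0.11. These are descriptions of the same 24 arrays, which share normalization.

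**Figure D4:**
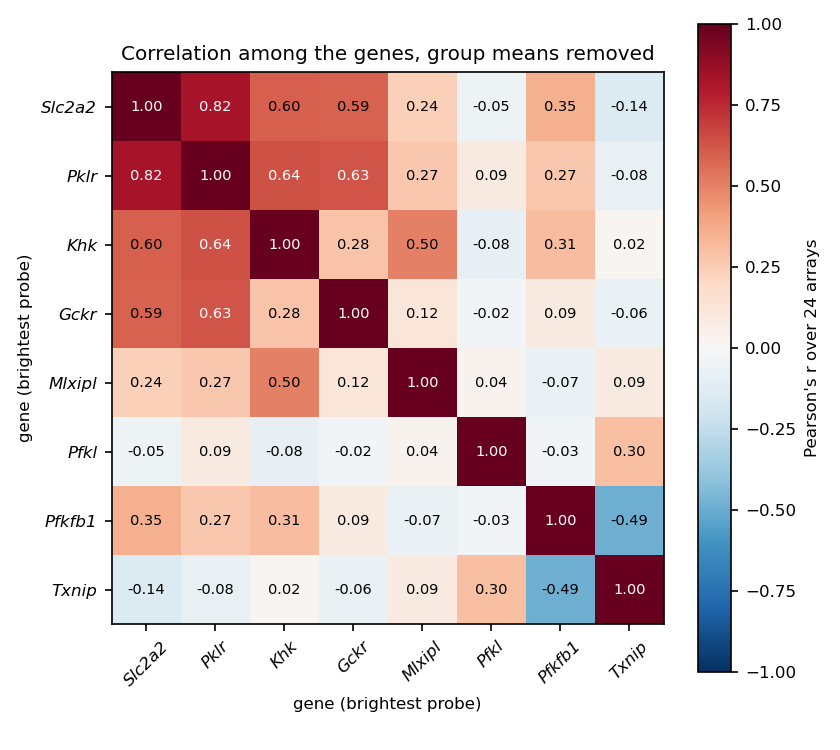
Pearson's r between the brightest probes of the 8 genes over 24 arrays, with group means removed. Slc2a2 with Pklr has the highest value (0.82), and Txnip with Pfkfb1 the lowest (-0.49).

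Among 12871 other gene names, those most like each member by the same measure were the following. For Pklr it was Hcn3, at 0.89, which RefSeq (GRCm38.p6) places overlapping the end of Pklr, then Psd3 and Riok2, both at 0.76. For Slc2a2 they were Psd3 (0.85), Acsm5 (0.84) and Apol7c (0.81). For Gckr they were Tmem14c (0.88), Pacsin2 (0.84) and Sh3glb2 (0.80), and for Khk Eif2a (0.81), Polg2 (0.79) and Sar1b (0.79). Mlxipl had Arhgap12 (0.82), Ccl27a (0.81) and Atat1 (0.80), and Pfkfb1 had Tmem129 (0.87), Rasgef1c (0.86) and Selenbp2 (0.84). Txnip had Inpp5a (0.81), Icam2 (0.79) and Csad (0.77), and Pfkl had Letm2 (0.81), Fbxo10 (0.75) and Wnt7b (0.75).

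Outside the 8 genes, 63 further genes were listed as glucose transporters, glycolytic enzymes, fructose and polyol enzymes, pentose phosphate enzymes, ChREBP partners and ChREBP targets, and 59 had a row. In HFoleic against reference, 3 were called higher and 6 lower, where 3.69% of all rows were called higher and 2.9% lower, with a median of -0.06 over the 59. In both HFepa comparisons 0 of 59 were called, where 0.342% of all rows were called against reference and 0% against HFoleic. The lists were also chosen with earlier results of these data known.

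Of 16 ChREBP targets, 1 was called higher and 4 lower in HFoleic, against 3.69% and 2.9% of all rows. Their median difference was -0.02. Mid1ip1, an activator of acetyl-CoA carboxylase, ranged from 10.26 to 11.25 in reference and from 11.50 to 12.75 in HFoleic. It rose by 1.20 (SE 0.18, adjusted p 0.000522). The ranges did not overlap, but Mid1ip1 was named for its large difference, and the share of all rows without overlap is not given here. Fgf21, a hormone of fasting and sugar intake, ranged from 10.56 to 12.20 in reference and from 9.39 to 12.18 in HFoleic, and fell by 1.07 (adjusted p 0.0318). The Fgf21 call was lost without reference replicate 1, 3, 6 or 9 or HFoleic replicate 1, 2, 6, 7 or 8, with the difference at -1.05 to -0.93 and the adjusted p at 0.0531 to 0.0758. It was also lost with no filter on dim probes (adjusted p 0.0578), with 2 groups per fit (0.0510) and with the methods' t-test (0.0869), where the differences were all -1.07. Acacb, the mitochondrial acetyl-CoA carboxylase, fell by 0.78 (adjusted p 0.0243), on its brightest probe of 3, the only one called, and the call was lost without reference replicate 1 or 3 or HFoleic replicate 3, 5 or 8 (-0.72 to -0.69, adjusted p 0.0502 to 0.0600) and with the methods' t-test (-0.78, adjusted p 0.0794). G6pc, which releases free glucose from glucose 6-phosphate, fell by 0.52 (adjusted p 0.00944). The fourth, Arrdc4, is an arrestin-like relative of Txnip and lay outside the rule for naming genes, so it was named after its values were seen. On its brightest probe it fell by 0.38 (adjusted p 0.00634), and both of its probes were called. Between the lineages the brightest probe stood at 0.19 (adjusted p 0.492).

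Of 23 other glycolytic genes, 2 were called lower in HFoleic and 0 higher, with a median of -0.10 and 5 of 23 above 0. For this and the lists below, 2.9% of all rows were called lower and 3.69% higher. Eno3, an enolase, ranged from 9.65 to 10.05 in reference and 9.36 to 9.79 in HFoleic and fell by 0.24 (adjusted p 0.0214), a call lost without HFoleic replicate 1 or 8 (-0.20 and -0.21, adjusted p 0.0517 and 0.0531). It was also lost in 4 of 11 other alternatives: the processed signal (-0.20, adjusted p 0.0769), 2 groups per fit (0.0554), the methods' t-test (0.0526) and the replicate block (0.0545), the last 3 with differences of -0.24 to -0.23. Aldoa, an aldolase, fell by 0.31 (adjusted p 0.0467). That call was lost in 16 of 24 fits leaving out 1 array, with differences of -0.32 to -0.26 and adjusted p up to 0.0864, and in 5 of 11 other alternatives, with differences of -0.34 to -0.31 and adjusted p up to 0.107. The fructose and polyol list had Sord, sorbitol dehydrogenase, higher by 0.39 (adjusted p 0.0122), 1 of 5 genes, a call lost with the processed signal (0.33, adjusted p 0.0599). The pentose phosphate list had Rpe, an epimerase, higher by 0.30 (adjusted p 0.00447), 1 of 8. Of 6 other transporters and the ChREBP partners Mlx and Mlxip, 0 were called. In HFepa, G6pc lay at -0.52 against reference (adjusted p 0.0607) and Mid1ip1 at 0.50 (adjusted p 0.216).

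**Figure D5:**
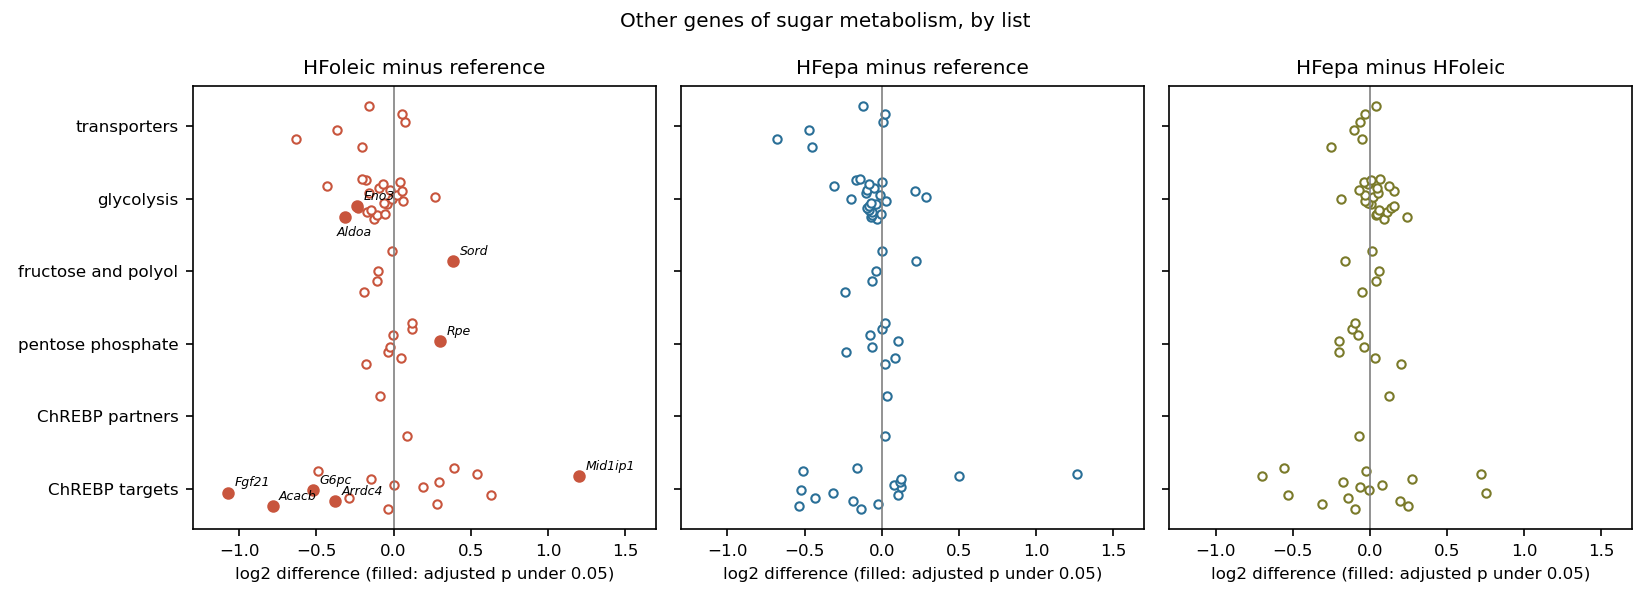
Log2 differences of the 59 further genes by list in the 3 comparisons, with filled symbols and names for an adjusted p under 0.05. Named genes appear only for HFoleic minus reference, 3 to the right and 6 to the left of 0.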

How the data were processed

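Liver RNA of 24 mice was hybridised to 1-colour (Cy3) Agilent arrays. The authors deposited scanner output made with Agilent Feature Extraction (version 10.10.1.1 in the submitters' processing notes), with spot and background intensities and a processed intensity. A second deposited file holds the log2 median signal per probe, filtered (rule not given in the sources used here) and quantile normalized between arrays, with 32176 rows and 2550 empty cells. Marks for spots well above background and for outliers are 0 or 1 per the file headers.

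The log2 table was fitted with limma (version 3.58.1, R 4.3.3) as a group-means model over all 24 arrays (lmFit and eBayes, two-sided, Benjamini-Hochberg over all rows within a comparison, calls under 0.05). A gene was read from its brightest row. Gene names, probe sequences and mm9 coordinates came from the scanner files, and probes were not assigned to exons. The number of arrays limits the precision. The 8 genes and the lists were chosen with earlier results of these data known. Named list genes were, per list and comparison, the 4 called genes with the largest absolute difference. Tables and figures used Python 3.11.15, pandas 2.3.3, numpy 2.4.6 and matplotlib 3.10.9. The fit was tested on simulated data.

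Alternatives were: scanner median signals of probes marked well above background on 75% or more of a group's arrays, or of all probes; processed signal minus its 75th percentile; normexp (offset 50) on mean signal; rows with no empty cell; 2 groups per fit; the methods' t-test; array weights; slide, slide row or replicate number as a block; each array left out; and the mean of a gene's rows. Marker sums per array and correlations without reference replicate 5 were added after seeing the data.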

Additional observations from a re-analysis of the deposited data

Results flagged for a closer look

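In 42 groups of values (14 probes in 3 groups), 5 had a highest or lowest mouse whose gap to its neighbour was large for the range of the group, by a criterion that chance meets in about 1 in 20 groups. Gckr in reference had replicate 8 highest at 15.03, above the next mouse at 14.80. Khk in reference had replicate 5 lowest at 14.79, below the next at 15.32. The brightest Pfkl probe had HFoleic replicate 3 at 9.391, above 8.872, and HFepa replicate 5 at 9.106, above 8.676. The second Mlxipl probe had HFoleic replicate 2 at 10.85, above 10.56. Without reference replicate 8, 4 of the 8 genes were called in HFoleic against reference (Mlxipl, Gckr, Pklr and Slc2a2) in place of 2. In that fit 2955 of all rows were called in place of 2122, the most of the 24 fits that left out 1 array. Pklr was called in 2 of those 24 fits and Slc2a2 in 1.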

How the results depend on the processing

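The Mlxipl call in HFoleic held under every alternative run, though its difference fell from 0.55 to 0.27 on the mean of its 3 rows, and 0 of 8 genes were called between the lineages under every alternative. With no filter on dim probes (56605 tested), 1 of the 8 genes stayed called in HFoleic, as Gckr moved to an adjusted p of 0.0544. In HFepa against reference, Mlxipl was lost, leaving 0 of 8, with no filter, the processed signal, 2 groups per fit, the methods' t-test, array weights, slide, slide row or replicate number as a block, and the mean of a gene's rows. The number of rows called in that comparison was 110 in limma, 60 with the processed signal, and 0 with no filter, with 2 groups per fit and with the methods' t-test, where 4845, 3573 and 3557 had an unadjusted p under 0.05. The causes were not tested. Between the lineages 0 rows were called, and 39 with array weights; the methods' t-test called 0, with 3566 at an unadjusted p under 0.05.

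Leaving out 1 array gave 1558 to 2955 called rows in HFoleic and 1 to 4 of the 8 genes, 0 to 467 rows and 0 to 1 genes in HFepa against reference, and 0 to 12 rows and 0 genes between the lineages. In HFepa against reference the count was 467 without reference replicate 8 and 235 without HFepa replicate 3. It was 0 without reference replicate 2 or HFepa replicate 2 or 6, 3 without HFepa replicate 1 or 7, 7, 22, 36, 60 and 65 without reference replicate 1, 4, 9, 7 and 5, and 60 without HFepa replicate 4.

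Values near 0 changed sign. Slc2a2 in HFepa against reference lay between -0.026 (without reference replicate 5) and 0.0952 (without reference replicate 8) when 1 array was left out. G6pc between the lineages lay between -0.0574 (without HFoleic replicate 1) and 0.0714 (without HFoleic replicate 3), and went to 0.0048 with the processed signal, 0.0654 with array weights and 0.0025 and 0.0072 with slide and slide row as a block. Over the mean of all rows of a gene, Mlxipl and Pfkl between the lineages went to 0.0376 and 0.0222. None of these values was called.

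Across groups, 22 pairs of mice with the same replicate number correlated at -0.28 to 0.34 with a median of 0.0035, and 3 were over 0.1. The 169 pairs with different numbers lay at -0.31 to 0.36 with a median of -0.0098, and 40 were over 0.1. No pairing by replicate number was seen in these values, which is no proof that there was none. With replicate number as a block, 1668 rows were called in HFoleic, 84 in HFepa against reference and 0 between the lineages, with 2, 0 and 0 of the 8 genes.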

Other observations

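RefSeq (GRCm38.p6) places Gm15441, a long non-coding RNA, across Txnip. Its probe, looked at after its values were seen, differed by -1.23 in HFoleic (SE 0.48, adjusted p 0.135) and by -0.08 in HFepa (SE 0.50, adjusted p 0.973) against reference, and by 1.15 between the lineages (SE 0.51, adjusted p 0.491). None of these was called. Hcn3, which overlaps the end of Pklr, differed by 0.51 (SE 0.17, adjusted p 0.0640), 0.19 (SE 0.17, adjusted p 0.712) and -0.33 (SE 0.18, adjusted p 0.597) in the same 3 comparisons, also without a call.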
